A study of Mus musculus with 16 samples.

Results

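Flg2, Hrnr, Rptn, Crnn and Tchhl1 are the genes of the S100-fused family described here. They were taken from the count tables by symbol, each had exactly 1 row, and together they are 5 of 23238 symbols. The RNA came from the dorsal skin of male wild-type C57BL/6N mice, bought at weaning age, with 4 mice per group and 1 library per mouse. The study asked how a diet low in ligands of the aryl hydrocarbon receptor (AhR), contact dermatitis on that diet and the herbal extract Bojungikgi-tang (BJIKT) act on the skin and its barrier. Cont mice ate normal chow. LowAhR mice were kept for 12 weeks on the low AhR ligand diet, with paper bedding free of AhR ligands. LowAhR+AD mice had the same diet and bedding, and from week 2 their dorsal skin was painted with 1% 2,4-dinitrochlorobenzene (DNCB), a hapten that causes an eczema used as a model of atopic dermatitis. LowAhR+AD+BJ mice had diet, bedding and DNCB, and received 1 g/kg of BJIKT daily by gavage over the same weeks. No group had DNCB on normal chow or BJIKT without DNCB, so the actions of DNCB and BJIKT were measured only on the low AhR ligand diet. Against Cont, diet and DNCB cannot be told apart. Whether the mice not treated with DNCB received the acetone and olive oil vehicle was not given in the sources used here.

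S100-fused proteins begin with a calcium-binding domain like that of the S100 proteins and continue with long stretches of repeats. Their genes lie side by side in the epidermal differentiation complex, and most of the proteins are made in the granular layer, the last living layer of the epidermis, where they fill keratohyalin granules and are then crosslinked into the cornified envelope. Filaggrin 2 (Flg2) and hornerin (Hrnr) are the members most like filaggrin. Repetin (Rptn) is an envelope precursor of stratified epithelia and hair follicles, cornulin (Crnn) is best known from the oesophagus and other moist squamous epithelia, and trichohyalin-like 1 (Tchhl1) is named after trichohyalin (Tchh), the protein of granules in the inner root sheath of the hair follicle.

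In the RefSeq annotation of GRCm38.p6, all 5 genes lie on the + strand of chromosome 3, in the order Crnn (93144789 to 93149818), Flg2 (93197273 to 93221377), Hrnr (93319749 to 93333572), Rptn (93393699 to 93399442) and Tchhl1 (93468754 to 93471980). Tchh (93442330 to 93449077) lies between Rptn and Tchhl1. In the GENCODE M21 transcripts paired with RefSeq, Crnn, Rptn and Tchhl1 each have 3 exons. The last exon holds 87.5%, 95.1% and 89.5% of the transcript. Flg2 has 6 exons and Hrnr 4, and the last holds only 24.1% and 35.1%. QuantSeq reads the stretch next to the poly(A) tail, so the counts come from the 3' end of the last exon and do not grow with the length of a transcript. The end of Flg2 lies 584 bases further downstream in RefSeq than in GENCODE M21, while the ends of the other 4 members differ by at most 2 bases. The annotation behind the counts was not given in the sources used here, and its part in the level of Flg2 was not tested.

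The 250 bases before each start are shown from RefSeq (GRCm38.p6), because the members are neighbours on 1 chromosome and yet differed in the direction of their changes. Capitals mark TGAATCA or its reverse complement TGATTCA.
Flg2, chr3:93197023-93197272, + strand: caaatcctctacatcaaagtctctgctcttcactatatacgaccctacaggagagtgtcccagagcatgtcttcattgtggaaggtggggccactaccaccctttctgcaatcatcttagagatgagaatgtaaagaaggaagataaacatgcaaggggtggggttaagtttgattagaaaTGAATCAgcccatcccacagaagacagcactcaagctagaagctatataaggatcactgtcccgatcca
Hrnr, chr3:93319499-93319748, + strand: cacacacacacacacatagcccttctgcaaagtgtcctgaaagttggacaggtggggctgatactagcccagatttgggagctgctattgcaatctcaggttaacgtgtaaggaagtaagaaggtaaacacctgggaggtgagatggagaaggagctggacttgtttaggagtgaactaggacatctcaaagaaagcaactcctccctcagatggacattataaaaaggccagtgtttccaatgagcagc
Rptn, chr3:93393449-93393698, + strand: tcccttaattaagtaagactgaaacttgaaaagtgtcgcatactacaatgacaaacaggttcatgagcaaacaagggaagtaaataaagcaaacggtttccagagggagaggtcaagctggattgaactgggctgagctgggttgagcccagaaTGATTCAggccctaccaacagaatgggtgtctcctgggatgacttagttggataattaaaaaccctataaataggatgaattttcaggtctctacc
Crnn, chr3:93144539-93144788, + strand: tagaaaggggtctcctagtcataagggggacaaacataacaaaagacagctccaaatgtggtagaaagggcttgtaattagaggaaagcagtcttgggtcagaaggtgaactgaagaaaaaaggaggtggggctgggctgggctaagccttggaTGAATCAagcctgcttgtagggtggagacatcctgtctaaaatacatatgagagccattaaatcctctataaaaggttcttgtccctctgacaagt
Tchhl1, chr3:93468504-93468753, + strand: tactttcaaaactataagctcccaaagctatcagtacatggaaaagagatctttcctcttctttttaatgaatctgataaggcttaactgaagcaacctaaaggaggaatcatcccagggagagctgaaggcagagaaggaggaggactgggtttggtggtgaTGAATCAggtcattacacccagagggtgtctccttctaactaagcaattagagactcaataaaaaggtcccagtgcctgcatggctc
TGAATCA was noticed on reading these sequences and then searched for on both strands of the RefSeq windows of 300 bases, which reach 50 bases past the start. It lay 69 bases before the start of Flg2, 87 before Tchhl1 and 96 before both Rptn and Crnn, and was not in the window of Hrnr. Of 32851 windows, 2.81% held it. GCGTG, the core of the AhR response element, was in none of the 5 windows and in 32.4% of all windows. The AP-1 motifs TGACTCA and TGAGTCA were in none of the 5 and in 5.20% of all, and CACCC, bound by KLF factors, was in 5 of 5 and in 57.5% of all. TATAAA, also chosen after reading, lay 31 bases before the start of Hrnr and Rptn and 29 before Crnn, against 13.6% of all windows. None of these matches overlapped another. They describe letters only.

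Library totals were 7080508 to 8773876 counts in the groups without DNCB and 10614393 to 13467477 in the groups with DNCB, without overlap. LowAhR+AD replicate 1 stood apart. Of the rows with at least 10 counts in all other libraries, 2.51% (267 of 10633) were at 0 in it, compared to at most 0.520% in any other library. Fits of the members that rest on it are therefore given with and without it. Correlations and the tests of Tchh and of the gene and marker lists are given with it only. Nothing in the sources says that the 4 mice of a group were housed apart, so p-values measure the spread between these mice.

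Levels are given as CPM, the usual scaling of a gene's counts to a common library size, here after TMM normalization, and a gene was called at an edgeR adjusted p under 0.05 over all genes tested. Of the 5 genes, 4 differed from Cont in both DNCB-treated groups, and not in the same direction. Of all genes tested, 21.8% were called in LowAhR+AD and 19.9% in LowAhR+AD+BJ. Flg2 fell, while Rptn, Crnn and Tchhl1 rose. Crnn had no counts in Cont and entered the tests only through the other groups. Hrnr was lower on average but did not pass the test. No member passed the test in the comparison of LowAhR with Cont, or in that of LowAhR+AD+BJ with LowAhR+AD. The plot of levels by library shows these patterns and the wide spread inside the DNCB-treated groups.

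**Figure D1:**
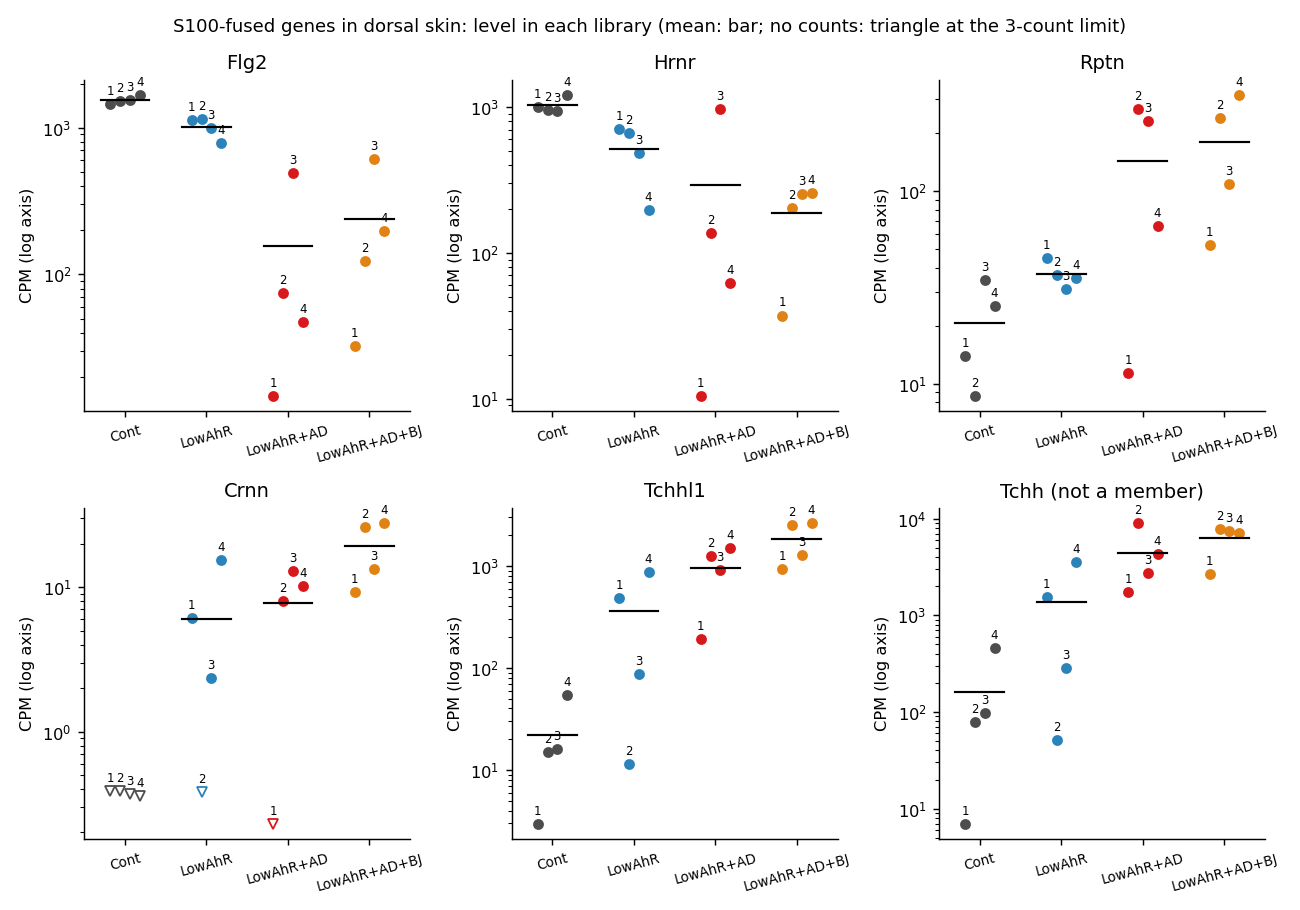
Level of each S100-fused gene and of Tchh in each library, in CPM on log axes, by group; numbers are replicates, bars are group means (n = 4) and open triangles mark libraries with no counts, placed at the level of 3 counts. Flg2 sits at 1440 to 1676 CPM in Cont and at 14.9 to 492 CPM in LowAhR+AD, while Tchhl1 sits at 2.95 to 53.8 and at 192 to 1490 CPM.

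Flg2, which encodes a keratohyalin granule protein that is cleaved in the outermost layers, was the most abundant member in Cont. Its level was 1440, 1529, 1541 and 1676 CPM in the 4 Cont libraries and 1134, 1144, 989 and 785 CPM in the LowAhR libraries. In LowAhR+AD it was 14.9, 74.7, 492 and 47.3 CPM, and in LowAhR+AD+BJ it was 32.4, 123, 608 and 196 CPM. Every library with DNCB was therefore below every library without it, and replicate 3 was the highest in both DNCB-treated groups. The highest library was 1.16 times the lowest in Cont, and 33.1 and 18.8 times the lowest in LowAhR+AD and LowAhR+AD+BJ.

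Compared to the LowAhR group (1013 ± 168 CPM, SD, n = 4), Flg2 fell in the LowAhR+AD group (157 ± 225), by 2.69 on the log2 scale (SE 0.84, edgeR adjusted p = 0.0426). The exact permutation p was 0.0286, the smallest that 4 against 4 libraries can give. This call did not hold when 1 library was left out in 6 of 8 ways (adjusted p up to 0.106), nor with robust dispersion (0.0946) or with only the 2 groups in the model (0.0934). Each of LowAhR replicates 1, 2 and 3 and LowAhR+AD replicates 1, 2 and 4 was needed for it, with adjusted p of 0.0834, 0.0816, 0.0717, 0.0618, 0.106 and 0.103 without them and log2 fold changes of -2.68 to -2.32 (-2.32 without LowAhR+AD replicate 1). The size of the change rests on LowAhR+AD replicate 3, the highest library of its group, without which it was -4.47 (adjusted p = 0.00152). Against Cont (1546 ± 97.1 CPM), Flg2 fell by 3.30 on the log2 scale in LowAhR+AD (SE 0.86, edgeR adjusted p = 0.0110), and by 2.93 without LowAhR+AD replicate 1 (adjusted p = 0.0129). Without replicate 3 it was -5.08 (adjusted p = 0.000530). It passed the threshold in all 8 fits that left out 1 library. It also fell in LowAhR+AD+BJ (240 ± 254 CPM), by 2.69 against Cont (SE 0.84, edgeR adjusted p = 0.0304), which was lost in 6 of 8 fits without 1 library: without Cont replicate 2, 3 or 4 the adjusted p was 0.0546, 0.0521 and 0.0533, and without LowAhR+AD+BJ replicate 1, 2 or 4 it was 0.0724, 0.0931 and 0.0805. With robust dispersion it was 0.0748. The log2 fold change in the fits without 1 library ran from -2.32 to -3.73, the latter without LowAhR+AD+BJ replicate 3 (adjusted p = 0.00732).

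In LowAhR against Cont the 2 groups did not overlap for Flg2 (log2 fold change -0.61, SE 0.79, edgeR adjusted p = 0.803, exact permutation p = 0.0286). The fit across all libraries shares its estimate of spread with the DNCB-treated groups, in which Flg2 varied most. With only the Cont and LowAhR libraries in the model the edgeR adjusted p was 0.0902. LowAhR+AD+BJ did not overlap LowAhR either (log2 fold change -2.08, SE 0.82, edgeR adjusted p = 0.139), and without LowAhR+AD+BJ replicate 3 this passed (-3.11, adjusted p = 0.0310). Between LowAhR+AD+BJ and LowAhR+AD the means were 240 and 157 CPM and the ranges overlapped (log2 fold change 0.61, 2 SE interval -0.97 to 2.19, edgeR adjusted p = 0.833, exact permutation p = 0.457). Without LowAhR+AD+BJ replicate 3 this difference was -0.44, and without LowAhR+AD replicate 3 it was 2.39. By mean level the order was Cont, LowAhR, LowAhR+AD+BJ and LowAhR+AD, and the last 2 did not differ beyond their spread.

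Hrnr, the gene of hornerin, a repeat protein of the cornified envelope, was second to Flg2 in Cont, at 1000, 960, 938 and 1214 CPM. In LowAhR it was 708, 662, 486 and 196 CPM. It was 10.5, 136, 969 and 62.1 CPM in LowAhR+AD, and 37.2, 203, 252 and 258 CPM in LowAhR+AD+BJ. All LowAhR and all LowAhR+AD+BJ libraries were below all Cont libraries, whereas LowAhR+AD replicate 3 lay inside the Cont range and the other 3 of that group below every LowAhR library. LowAhR+AD replicate 1 had the lowest level of all 16 libraries.

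In the model of all 16 libraries Hrnr passed the edgeR test in none of the 6 comparisons, but against Cont it passed under some alternatives. Compared to the LowAhR group (513 ± 232 CPM, n = 4), it was 294 ± 452 CPM in LowAhR+AD (log2 fold change -0.80, SE 0.84, edgeR adjusted p = 0.575). This value rests on LowAhR+AD replicate 3, without which the log2 fold change was -2.88 and the adjusted p 0.0140. Without LowAhR+AD replicate 1 it was -0.41 (adjusted p = 0.766). Against Cont (1028 ± 127 CPM) the log2 fold change was -1.80 in LowAhR+AD (SE 0.86, edgeR adjusted p = 0.148), -3.88 without replicate 3 (adjusted p = 0.00212) and -1.42 without replicate 1 (adjusted p = 0.172). For LowAhR+AD+BJ (188 ± 103 CPM) it was -2.45 against Cont (SE 0.88, edgeR adjusted p = 0.0582). This passed with only the 2 groups in the model (-2.47, adjusted p = 0.00191), with at least 10 counts required in every library (0.0348), with the replicate block (0.0431) and with limma voom (0.0363). The Cont mean was 2.00 times the LowAhR mean (edgeR adjusted p = 0.664, exact permutation p = 0.0286). With limma voom LowAhR+AD passed against Cont too (-3.41, adjusted p = 0.0117). Between LowAhR+AD+BJ and LowAhR+AD the log2 fold change was -0.65 (2 SE interval -2.33 to 1.03, edgeR adjusted p = 0.832), and its sign depended on LowAhR+AD replicate 3, with 1.43 without it.

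Rptn, an envelope precursor of stratified epithelia, went the other way from its neighbours Flg2 and Hrnr. It was 13.9, 8.66, 34.4 and 25.4 CPM in Cont and 44.9, 36.5, 31.0 and 35.3 CPM in LowAhR. In LowAhR+AD it was 11.3, 266, 230 and 66.1 CPM, and in LowAhR+AD+BJ 52.5, 239, 109 and 316 CPM. All LowAhR+AD+BJ libraries were above all libraries without DNCB, and so were 3 of 4 LowAhR+AD libraries, the exception being replicate 1.

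Against Cont (20.6 ± 11.6 CPM, n = 4), Rptn rose in LowAhR+AD (143 ± 124 CPM), by a log2 fold change of 2.80 (SE 0.71, edgeR adjusted p = 0.00953), and by 3.17 without LowAhR+AD replicate 1 (adjusted p = 0.000655). The groups overlapped (exact permutation p = 0.143), and with limma voom the adjusted p was 0.131. Rptn rose in LowAhR+AD+BJ too (179 ± 120 CPM), by 3.12 (SE 0.72, edgeR adjusted p = 0.00559), with no overlap. Compared to LowAhR (36.9 ± 5.83 CPM) the log2 fold changes were 1.96 in LowAhR+AD (SE 0.69, edgeR adjusted p = 0.0688) and 2.28 in LowAhR+AD+BJ (SE 0.70, edgeR adjusted p = 0.0562). The first passed without LowAhR+AD replicate 1 (2.34, adjusted p = 0.00997), and the second passed without LowAhR+AD+BJ replicate 1 or 3 (adjusted p = 0.0454 and 0.0442). LowAhR against Cont gave 0.84 (SE 0.68, edgeR adjusted p = 0.649), and LowAhR+AD+BJ against LowAhR+AD gave 0.32 (SE 0.66, edgeR adjusted p = 0.902), which was -0.08 without LowAhR+AD replicate 1.

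Crnn, the gene of cornulin, was the scarcest member. It had 0 counts in all 4 Cont libraries, which allows a level of up to 0.376 CPM on average (3 counts in each library). It had 45, 0, 18 and 130 counts in LowAhR, 0, 97, 167 and 127 in LowAhR+AD, and 102, 257, 171 and 275 in LowAhR+AD+BJ. Only LowAhR+AD+BJ had counts in all 4 libraries, and LowAhR replicate 2 and LowAhR+AD replicate 1 had none.

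Compared to Cont, Crnn was at least 20.7-fold higher in LowAhR+AD (7.78 ± 5.58 CPM, n = 4, edgeR adjusted p = 0.00679, exact permutation p = 0.143) and at least 50.9-fold higher in LowAhR+AD+BJ (19.1 ± 9.20 CPM, edgeR adjusted p = 0.00316). With limma voom the adjusted p in LowAhR+AD was 0.177, and without LowAhR+AD replicate 1 the edgeR value was 0.000888. Crnn passed the filter on low counts only through the groups fed the low AhR ligand diet. Its calls against Cont therefore add no support beyond the counts themselves. In LowAhR it was 5.99 ± 6.83 CPM, at least 15.9-fold higher, with an edgeR adjusted p of 0.0846, which became 0.0329 without LowAhR replicate 2, a library with no counts, and 0.233 without replicate 4, the highest. Between the 3 groups fed the low AhR ligand diet the log2 fold changes were 0.38 for LowAhR+AD against LowAhR (SE 1.11, edgeR adjusted p = 0.865), 1.67 for LowAhR+AD+BJ against LowAhR (SE 1.13, edgeR adjusted p = 0.435) and 1.30 between the LowAhR+AD+BJ and LowAhR+AD groups (2 SE interval -0.93 to 3.52, edgeR adjusted p = 0.739). Without LowAhR replicate 2 the first was -0.04, and without replicate 4 it was 1.47.

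Tchhl1, the neighbour and relative of trichohyalin, had the widest range of the members. Its level was 2.95, 15.1, 16.2 and 53.8 CPM in Cont and 486, 11.5, 87.6 and 876 CPM in LowAhR. It was 192, 1238, 911 and 1490 CPM in LowAhR+AD, and 928, 2535, 1267 and 2626 CPM in LowAhR+AD+BJ. All libraries with DNCB were above all Cont libraries. The LowAhR group spread over both, with its replicate 2 inside the Cont range and its replicates 1 and 4 above LowAhR+AD replicate 1.

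Against Cont (22.0 ± 22.0 CPM, n = 4), Tchhl1 rose by a log2 fold change of 5.44 in LowAhR+AD (958 ± 563 CPM, SE 1.09, edgeR adjusted p = 0.00204) and of 6.38 in LowAhR+AD+BJ (1839 ± 868 CPM, SE 1.14, edgeR adjusted p = 0.00105). Both passed in every fit without 1 library, and without LowAhR+AD replicate 1 the first was 5.77 (adjusted p = 0.000856). Without Cont replicate 4, the highest of its group, they were 6.39 and 7.33. In LowAhR (365 ± 399 CPM) the log2 fold change against Cont was 4.05 (SE 1.02, edgeR adjusted p = 0.0846, exact permutation p = 0.114), and without LowAhR replicate 2 it was 4.46 (adjusted p = 0.0256). It was 3.15 without LowAhR replicate 4 (adjusted p = 0.245) and 5.004 without Cont replicate 4 (0.0873). LowAhR+AD+BJ did not overlap LowAhR (2.33, SE 0.94, edgeR adjusted p = 0.150), while LowAhR+AD did (1.39, SE 0.91, edgeR adjusted p = 0.341). LowAhR+AD+BJ against LowAhR+AD gave 0.94 (2 SE interval -0.87 to 2.75, edgeR adjusted p = 0.766). By mean level the order was LowAhR+AD+BJ, LowAhR+AD, LowAhR and Cont, and no 2 neighbours in it passed the test. With LowAhR+AD replicate 1 left out, Tchhl1 was 1.74 and Crnn 0.80 above LowAhR on the log2 scale in the LowAhR+AD group. Between LowAhR+AD+BJ and LowAhR+AD the log2 difference was then 0.59 for Tchhl1, 0.87 for Crnn, 0.22 for Flg2 and -1.06 for Hrnr, and 0 members were called.

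**Figure D2:**
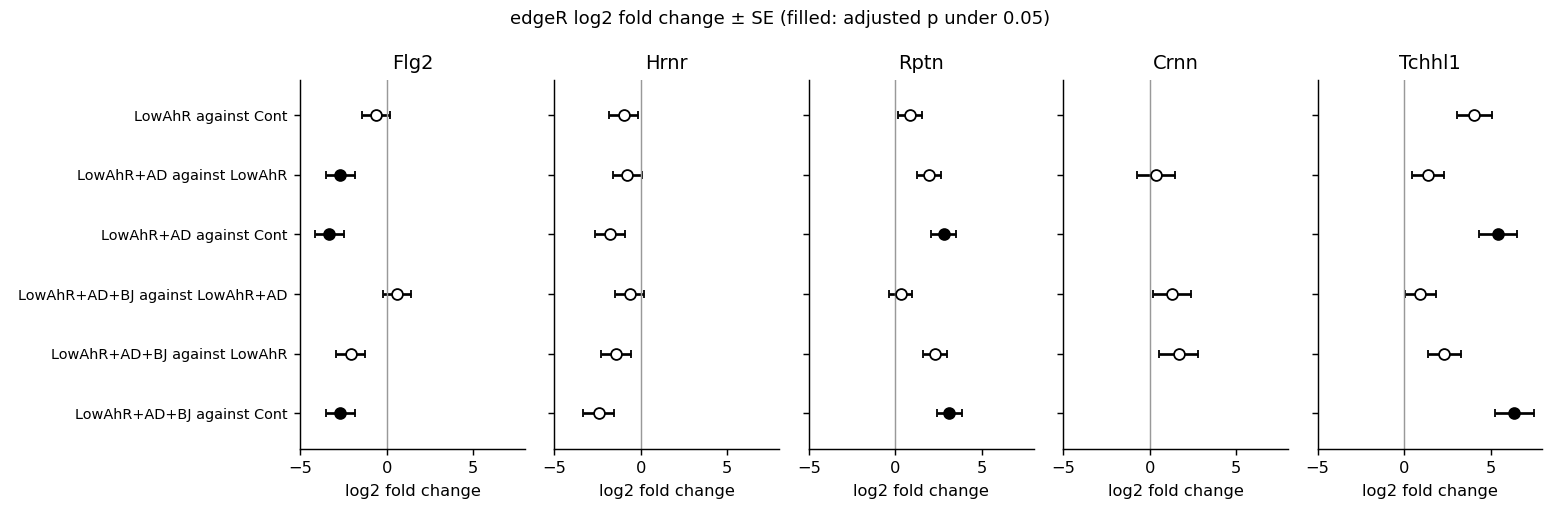
Log2 fold change of each S100-fused gene in the 6 comparisons (x axis), from edgeR with all 16 libraries; whiskers are SE and filled points have an adjusted p under 0.05. Flg2 and Hrnr lie to the left and Rptn, Crnn and Tchhl1 to the right in every comparison with a DNCB-treated group on one side only; Crnn against Cont is not drawn because Cont had no counts.

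The counts of members called are set here against all 14854 genes tested, and every comparison with Cont or LowAhR shares those libraries with others. In LowAhR+AD against Cont, 4 of 5 members were called, 3 higher and 1 lower, and 21.8% of all genes were called, 12.3% higher and 9.47% lower. The same 4 members were called in LowAhR+AD+BJ against Cont, beside 19.9% of all genes, 11.2% higher and 8.62% lower. Crnn, 1 of these 4, had no counts in Cont and entered the tests only through the other groups. In LowAhR+AD against LowAhR, 1 of 5 was called (Flg2, lower), beside 12.6% of all genes, 6.42% higher and 6.21% lower. In LowAhR+AD+BJ against LowAhR, 0 of 5 were called by edgeR, beside 6.77% of all genes (3.64% higher and 3.12% lower). DESeq2 called 1 of the 3 members for which it gave a p, and limma voom called 2 of 5. The unadjusted edgeR p of Flg2, Rptn and Tchhl1 was under 0.05 there, at 0.0206, 0.00421 and 0.0234.

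In LowAhR against Cont and in LowAhR+AD+BJ against LowAhR+AD, edgeR with all 16 libraries called 0 of 5 members and 0% of all genes. The number of genes with an unadjusted p under 0.05 was 2031 and 1405, DESeq2 called 491 and 17 genes, and limma voom called 0 in both. Among the 3 members with a DESeq2 p, it called Crnn and Tchhl1 in the first and 0 in the second. Of the members, Crnn and Tchhl1 had an unadjusted edgeR p under 0.05 in the first (0.000900 and 0.000879) and none had in the second. In LowAhR against Cont, edgeR called 250 genes with only the 2 groups in the model and 45 with at least 10 counts in every library. Without LowAhR replicate 2 it called 159. In LowAhR+AD+BJ against LowAhR+AD it called 0 with only the 2 groups and 0 with the stricter filter.

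Groups that did not overlap are counted in the same way. This held for 2 members in LowAhR against Cont (11.3% of all genes), 1 in LowAhR+AD against LowAhR (18.8%), 2 in LowAhR+AD against Cont (24.7%), 0 in LowAhR+AD+BJ against LowAhR+AD (5.08%), 3 in LowAhR+AD+BJ against LowAhR (17.1%) and 5 in LowAhR+AD+BJ against Cont (27.7%).

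Counts do not grow with transcript length, so the make-up of the 5 genes' counts can be compared between libraries. How fully the reads of each gene were counted is not known, so the shares are of counts and not of transcripts. In Cont, Flg2 made up 56.4% to 60.9% of these counts and Hrnr 37.1% to 40.9%, and Tchhl1 only 0.120% to 1.81%. In LowAhR, Tchhl1 took 20.4%, 0.621%, 5.48% and 45.9%. In LowAhR+AD it took 34.8% to 88.9% and in LowAhR+AD+BJ 56.3% to 87.6%, and it was the largest share in all 4 libraries of LowAhR+AD+BJ and in 3 of 4 of LowAhR+AD. The exception was LowAhR+AD replicate 3, in which Hrnr took 37.0%. The summed level of the 5 genes was 2457 to 2969 CPM in Cont and 1596 to 2380 CPM in LowAhR. It was 228 to 2615 CPM in LowAhR+AD, with replicate 1 lowest, and 1060 to 3424 CPM in LowAhR+AD+BJ.

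**Figure D3:**
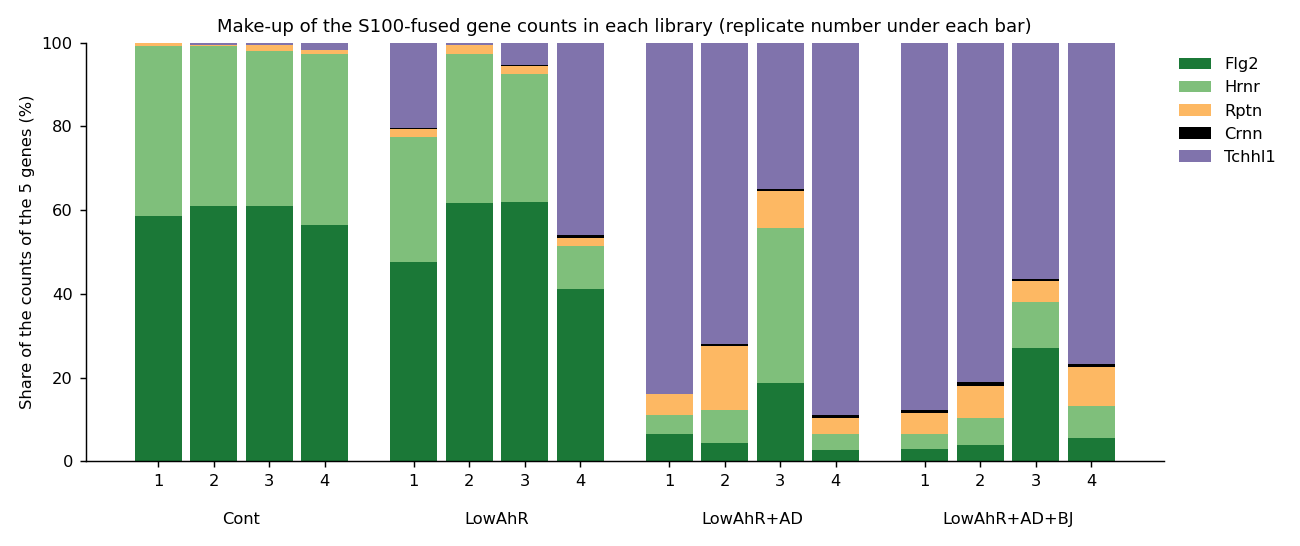
Share of each gene in the counts of the 5 S100-fused genes (y axis, %), 1 bar per library, grouped by treatment. Flg2 and Hrnr fill nearly all of each Cont bar, and Tchhl1 fills 34.8% to 88.9% of the bars of LowAhR+AD and LowAhR+AD+BJ.

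The ratio of 2 members in the same library does not depend on the library total. Per 100 counts of Flg2 there were 0.566 to 2.23 counts of Rptn in Cont and 3.13 to 4.50 in LowAhR. There were 46.7 to 356 in LowAhR+AD and 17.9 to 194 in LowAhR+AD+BJ. Every library with DNCB was thus above every library without it, LowAhR+AD replicate 1 included (75.9), and every LowAhR library was above every Cont library. Counts of Flg2 per 100 of Hrnr were 138 to 164 in Cont and 160 to 400 in LowAhR, and 54.8, 50.8 and 76.2 in LowAhR+AD replicates 2, 3 and 4, compared to 142 in replicate 1. The range in LowAhR+AD+BJ was 60.5 to 241, with replicate 3 highest. These ratios were chosen after the values had been seen, and are given without a test.

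Skin holds many cell types, and in bulk RNA fewer cells of a type and less RNA per cell cannot be told apart. The 7 markers of suprabasal keratinocytes of the interfollicular epidermis, the cells that go on to make Flg2 and Hrnr, summed to 5091 to 7209 CPM in Cont and 4960 to 10436 CPM in LowAhR. In LowAhR+AD they summed to 494, 2714, 10880 and 2530 CPM, and in LowAhR+AD+BJ to 3266, 5484, 4690 and 6141 CPM. LowAhR+AD replicate 1 was thus lowest and replicate 3 highest in this sum, as they were in Flg2 and Hrnr. In LowAhR+AD+BJ the orders differed: replicate 4 was highest in the sum and replicate 3 in Flg2. The median sum was 5485 CPM in Cont and 7902 CPM in LowAhR, whereas Flg2 was lower in every LowAhR library than in every Cont library. All 7 markers were detected in every group. In LowAhR+AD against LowAhR, 0 were called higher and 2 lower (Krt77 and Krt2, below), beside 6.42% and 6.21% of all genes. The part of this sum in the fall of Flg2 was not tested. Counts of Flg2 per 100 of Krt10, a keratin of the same suprabasal cells, were 64.3 to 84.0 in Cont, 37.8 to 53.3 in LowAhR, 12.2 to 73.6 in LowAhR+AD and 13.9 to 60.1 in LowAhR+AD+BJ. For Hrnr they were 43.5 to 58.3, 10.6 to 26.2, 24.1 to 66.2 and 18.3 to 69.0. Per count of Krt10 every LowAhR library was therefore below every Cont library for both genes, whereas LowAhR+AD replicate 1 lay inside the Cont range of Flg2 (73.6) and replicates 2, 3 and 4 below the LowAhR range (36.3, 12.2 and 31.4). For Hrnr the LowAhR+AD values overlapped both ranges.

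Hair follicle genes were higher in the DNCB-treated groups than in Cont, as Tchhl1 was. The 8 markers of the inner root sheath and companion layer, among them Tchh, summed to 26.8 to 911 CPM in Cont, 119 to 8079 CPM in LowAhR, 5903 to 19789 CPM in LowAhR+AD and 5472 to 15192 CPM in LowAhR+AD+BJ, and 8 of 8 were called higher in LowAhR+AD against Cont. Of all genes tested, 12.3% were called higher in that comparison. Krt72 was at 0 in every Cont library. The 10 markers of hair shaft and matrix summed to 25.3 to 123, 12.3 to 2922, 1589 to 7603 and 1227 to 4638 CPM, with 9 of 10 called higher in LowAhR+AD against Cont and none of the 10 at 0 in every library of a group. In LowAhR+AD against LowAhR only 1 of 8 and 1 of 10 were called higher, beside 6.42% of all genes. In LowAhR against Cont 0 of either list were called. All 8 and all 10 had a positive log2 fold change there, with medians of 3.19 and 4.39. Within LowAhR, the 4 libraries had the same order in Tchhl1, in Crnn and in the sum of the shaft markers (661, 12.3, 131 and 2922 CPM), with replicate 4 highest and replicate 2 lowest. In the other 3 groups the order of Tchhl1 was not that of the shaft sum: in LowAhR+AD+BJ this sum was 1227, 3911, 4638 and 3184 CPM, highest in replicate 3, which was the third in Tchhl1. Between LowAhR+AD+BJ and LowAhR+AD, 9 of the 10 shaft markers had a negative log2 fold change (median -0.57, 0 called), while the value for Tchhl1 was 0.94. The part of these cells in the rise of Tchhl1, Crnn and Rptn was not tested.

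Tchh, the family gene that is no member, was 6.93 to 464 CPM in Cont, 51.2 to 3569 CPM in LowAhR, 1748 to 8988 CPM in LowAhR+AD and 2668 to 7808 CPM in LowAhR+AD+BJ. It rose against Cont in LowAhR+AD (log2 fold change 4.78, SE 1.15, edgeR adjusted p = 0.00695) and in LowAhR+AD+BJ (5.27, SE 1.18, edgeR adjusted p = 0.00463), and was not called in LowAhR+AD against LowAhR (1.71, SE 1.01, edgeR adjusted p = 0.285). Counts of Tchhl1 per 100 of Tchh were 11.6 to 42.6, 22.5 to 31.6, 11.0 to 35.0 and 17.1 to 37.2 in the 4 groups from Cont to LowAhR+AD+BJ. The ratio thus overlapped between all groups, while both genes differed more than 100-fold between libraries. Per 100 of Tchhl1, Crnn had 1.00 to 1.06 counts in the LowAhR+AD+BJ libraries and 0 to 2.67 elsewhere. The markers of moist squamous epithelium, the best known site of Crnn, stayed near 0: the 4 of 5 that were in the table summed to at most 5.09 CPM in any library, and Krt13, Rhcg and Sprr3 had no counts in Cont or LowAhR.

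**Figure D4:**
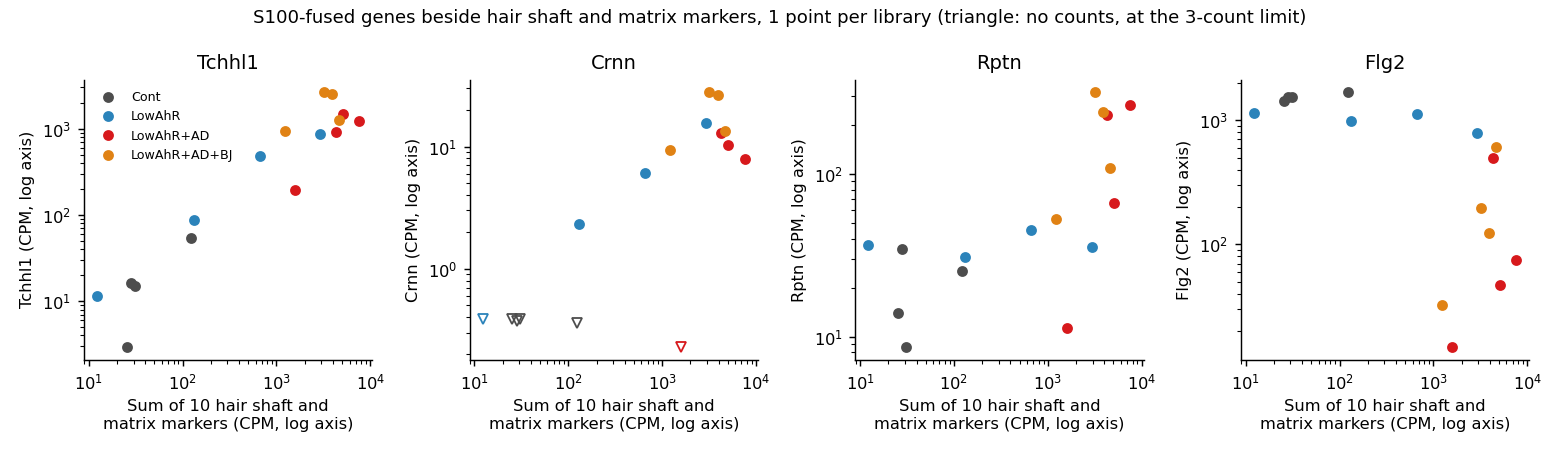
Level of Tchhl1, Crnn, Rptn and Flg2 (y axes, CPM) against the summed level of 10 hair shaft and matrix markers (x axes, CPM), all on log axes, 1 point per library; open triangles are libraries with no counts, at the level of 3 counts. Tchhl1 runs from 2.95 to 2626 CPM and is lowest in the 4 libraries in which the markers sum to 12.3 to 30.8 CPM; Flg2 is at 1144 to 1541 CPM in the same 4.

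Over the 16 libraries, the genes most like each member in log2 CPM were found as a description. These libraries share their groups and depths. For Flg2 they were Cyp2e1 (Pearson r = 0.98), Serpinb7 (0.97) and Adh1 (0.97), and for Hrnr they were Lce1a1 (0.97), Hal (0.97) and Krt78 (0.96). Hal encodes histidase, which acts on the histidine released from filaggrin, and Lce1a1 is a late cornified envelope gene of the same complex on chromosome 3. Rptn was most like Tubb2a, Gsdma and E030024N20Rik (0.91 each), Crnn most like Gm11554 (0.98), Gm11595 (0.96) and Krtap4-2 (0.96), and Tchhl1 most like Ly6g6d (0.99), Krtap8-1 (0.99) and Krt28 (0.98). Krtap4-2 and Krtap8-1 encode keratin-associated proteins of the hair shaft, and Krt28 a keratin of the inner root sheath.

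With the group means taken out, so that the comparison is of mice within groups, Flg2 was most like Lce1m (0.97), 2310050C09Rik (0.96) and Lce1a2 (0.96), and Hrnr most like Lce1i, Lce1j and Lce1h (0.98 each). Of the 6 genes, 5 are late cornified envelope genes of the Lce1 group. Their Spearman rank correlations were lower, at 0.75, 0.75 and 0.80 for Flg2 and 0.90, 0.91 and 0.94 for Hrnr. The SD of log2 CPM of Flg2 was 0.09 in Cont and 0.25 in LowAhR. It was 2.09 in LowAhR+AD and 1.75 in LowAhR+AD+BJ, so the DNCB-treated libraries weigh most in r. Rptn was most like Ckap2l (0.92), Ivl (0.90), the gene of involucrin, and Cln8 (0.89). Crnn was most like Rabl2 (0.97), Gm11554 (0.97) and Gm11595 (0.95), and Tchhl1 most like Ly6g6d, Krtap10-10 and Krt33b (0.97 each), the last a hair shaft keratin. Among the members themselves, within groups and over 16 libraries, r was 0.92 for Flg2 and Hrnr, 0.81 for Crnn and Tchhl1, 0.79 for Hrnr and Rptn, 0.64 for Flg2 and Rptn, and 0.17 for Flg2 and Tchhl1. The Spearman values of these 5 pairs were 0.91, 0.80, 0.62, 0.57 and 0.11. Tchhl1 and Tchh gave an r of 0.94 (Spearman 0.89). Libraries without counts of Crnn entered at the value that the prior count of 2 gives them.

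The proteins of this family are cleaved and deiminated after synthesis. Of 22 genes for profilaggrin processing and breakdown, 21 were tested, and in LowAhR+AD against LowAhR 4 were called higher and 1 lower, with a median log2 fold change of 0.83 compared to 0.04 over all genes tested. Klk6, a kallikrein protease, rose from 83.1 ± 31.0 to 762 ± 639 CPM (log2 fold change 3.20, edgeR adjusted p = 0.00181, n = 4). St14, the gene of matriptase, rose too, to 41.2 ± 22.1 CPM (1.37, edgeR adjusted p = 0.0209). Padi2, a peptidylarginine deiminase, fell from 20.4 ± 2.52 to 5.51 ± 1.97 CPM (-1.89, edgeR adjusted p = 0.00670). Against Cont, 9 of the 21 were called higher and 2 lower in LowAhR+AD, and 10 higher and 2 lower in LowAhR+AD+BJ. For LowAhR+AD+BJ against LowAhR these counts were 4 and 1. Of all genes tested, 6.42% were called higher and 6.21% lower in LowAhR+AD against LowAhR, and 3.64% and 3.12% in LowAhR+AD+BJ against LowAhR. Against Cont these shares were 12.3% and 9.47% in LowAhR+AD, and 11.2% and 8.62% in LowAhR+AD+BJ. The same shares stand beside the counts of the 2 lists that follow.

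The envelope scaffold and its transglutaminases, the partners to which S100-fused proteins are linked, were listed together with suprabasal keratins such as Krt10. In LowAhR+AD against LowAhR, 1 of 14 was called higher and 2 lower, with a median log2 fold change of -0.55. Tgm3, a transglutaminase of epidermis and hair follicle, rose from 34.7 ± 27.2 to 151 ± 65.2 CPM (2.12, edgeR adjusted p = 0.0137, n = 4). The 2 called lower were keratin genes, Krt77 and Krt2, which also stand among the suprabasal markers above. They fell from 14.5 ± 2.84 to 0.158 ± 0.167 CPM (edgeR adjusted p = 0.00230) and from 17.4 ± 27.7 to 0.812 ± 0.981 CPM (edgeR adjusted p = 0.0299). The LowAhR+AD mean of Krt77 lay below the 0.237 CPM to which 3 counts correspond there, and the SD of Krt2 in LowAhR exceeded its mean. Against Cont, 1 of the 14 was called higher and 5 lower in both LowAhR+AD and LowAhR+AD+BJ, and 0 higher and 1 lower in LowAhR+AD+BJ against LowAhR.

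Of 17 transcription factor genes of late epidermal differentiation, Ahr among them, 4 were called higher and 1 lower in LowAhR+AD against LowAhR, with a median log2 fold change of 0.70. The highest log2 fold change in the list, 2.04, was of a gene that was not called. The largest changes among those called were Zfp750 (44.8 ± 7.94 to 106 ± 35.9 CPM, log2 fold change 1.25, edgeR adjusted p = 0.00396, n = 4), Cebpb (53.6 ± 10.9 to 110 ± 64.4 CPM, 1.04, edgeR adjusted p = 0.0432) and Ovol1 (57.5 ± 9.86 to 115 ± 18.1 CPM, 1.00, edgeR adjusted p = 0.0217), a factor known to act on filaggrin downstream of AhR. Against Cont, 3 were called higher and 4 lower in LowAhR+AD and 2 higher and 4 lower in LowAhR+AD+BJ, and 1 was higher and 2 lower in LowAhR+AD+BJ against LowAhR. None of the genes of these 3 lists was called by edgeR in LowAhR against Cont or in LowAhR+AD+BJ against LowAhR+AD.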

How the data were processed

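Skin RNA of 16 mice was profiled with QuantSeq, a 3' protocol read from a single end, with 1 library per mouse and 4 mice in each of 4 groups named by the labels. The authors deposited raw counts for each gene symbol, 1 file per library. The submitters' processing notes name Bowtie2, bedtools and the mm10 build, without settings. The annotation, the use of strand and the treatment of reads with several matches were not given in the sources used here. Library totals were 7080508 to 13467477 counts.

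Counts were tested with the quasi-likelihood test of edgeR 4.0.16 (R 4.3.3) in a single model of all 16 libraries, with TMM factors of 0.892 to 1.16. The filterByExpr function (minimum count 10, minimum total 15) kept 14854 of 23282 rows. Adjusted p-values are Benjamini-Hochberg values over these rows, with a threshold of 0.05. Intervals run 2 SE either way of the log2 fold change, with the SE derived from the F statistic of the test. Single values were compared on log2 CPM (prior count 2) by a two-sided exact permutation test, computed with scipy 1.17.1, whose smallest p with 4 against 4 libraries is 0.0286. Where a library had no counts, up to 3 counts were taken as possible, a limit that covers counting error only. Replicates of a group differed by far more than sampling noise (chi-square per degree of freedom 16.4 to 285), so each library was 1 replicate. The scripts were first tested on simulated data.

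The text names all 5 members, the 3 largest changes of each gene list among those called in LowAhR+AD against LowAhR, and the 3 genes most like each member on 2 measures over the 16 libraries. Alternatives were DESeq2 1.42.0, voom from limma 3.58.1, RLE or upper-quartile scaling, other filters (none, or 10 counts in each library), a model of the 2 groups compared, a replicate block, library sizes without markers of muscle, hair follicle and fat, robust dispersion, plain totals or a prior count of 0.5 in the permutation test, and each library left out in turn. The members, lists and tests were chosen with earlier results of these data known. Promoters and positions came from RefSeq tables of GRCm38.p6, the assembly of mm10, in which all 5 members were found by symbol. The motifs TGAATCA and TATAAA and the ratios between genes were chosen after sequences or values had been seen. Flg has no row in the count files, so it could not be analysed here.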

Additional observations from a re-analysis of the deposited data

Results flagged for a closer look

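In 19 sets of 4 libraries, 1 set per member and group with any counts, the library farthest from the other 3 was looked for by Dixon's criterion on log2 CPM (prior count 2, which gives a library without counts a value), which chance alone meets in about 1 in 20. Hrnr in LowAhR+AD+BJ replicate 1 was 37.2 CPM, compared to 203 CPM in the next library, with a gap of 0.878 of the whole range on that scale. Crnn in LowAhR+AD replicate 1 was at 0 CPM, with a gap of 0.885 of the range in log2 CPM, whereas it had 97 to 167 counts in the other 3 libraries of that group. Neither met the criterion on plain CPM, an alternative added after the data were seen, in which the gaps were 0.754 and 0.613. On plain CPM 2 other sets met it, Flg2 and Hrnr in LowAhR+AD, with replicate 3 highest and gaps of 0.875 and 0.868.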

How the results depend on the processing

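In LowAhR against Cont, DESeq2 called 2 members (Crnn and Tchhl1) where edgeR called 0, and the fits without 1 library called 0 to 2. In LowAhR+AD against LowAhR, 1 member was called. The filter of at least 10 counts in every library gave 2 (Rptn in addition), only the 2 groups in the model gave 0, robust dispersion gave 0, and the fits without 1 library gave 0 to 2. In LowAhR+AD+BJ against LowAhR, 0 were called. DESeq2, no filter on low counts, the stricter filter and only the 2 groups each gave 1 (Rptn), limma voom gave 2 (Flg2 and Tchhl1), and the fits without 1 library gave 0 to 2. DESeq2 gave no p for Flg2 and Hrnr in any comparison, so its counts cover 3 members. The cause of these differences was not tested, other than that fewer libraries or fewer genes entered the fit.

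In LowAhR+AD+BJ against LowAhR+AD the log2 fold change of Hrnr (-0.65) was 0.63 with limma voom and 0.064 with the replicate block, and -1.06 to 1.43 without 1 library. There that of Flg2 ranged from -0.44 to 2.39 and that of Rptn from -0.11 to 0.79 without 1 library. That of Crnn in LowAhR+AD against LowAhR ranged from -0.038 to 1.47. In LowAhR+AD against Cont the members called ranged from 3 to 5, and in LowAhR+AD+BJ against Cont from 3 to 5. Crnn was not tested in any comparison under the filter of at least 10 counts in every library. It was also not tested with only the 2 groups in the model in LowAhR or LowAhR+AD against Cont. In LowAhR+AD against Cont both of these fits called 3 of 4 members tested, and limma voom called 3 of 5. In LowAhR+AD the fall of Flg2 was larger with limma voom and with the replicate block, at -3.81 and -3.76 against LowAhR and -4.44 and -4.32 against Cont. Library sizes without muscle, hair follicle and fat markers left each count of members called as it was.

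The replicate numbers were treated as names only. Libraries with the same number deviated from their group means with a correlation of -0.0547 to 0.167 over 24 pairs (median -0.00736). Over the 72 pairs with different numbers it was -0.146 to 0.14 (median -0.00935). Of 16 libraries, 7 correlated best with their own number, and no test of this was run. With the replicate block, 1 member was called in LowAhR+AD+BJ against LowAhR (Flg2, edgeR adjusted p = 0.0290) and 5 in place of 4 in LowAhR+AD+BJ against Cont (Hrnr in addition, 0.0431).

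At these depths 3 counts correspond to 0.237 CPM on average in LowAhR+AD and 0.385 CPM in LowAhR, which limits what can be said of Crnn.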

Other observations

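The activated keratinocyte markers, such as Krt6a and Krt16, were called higher in 7 of 7 in both DNCB-treated groups against Cont and against LowAhR. Of all genes tested, 12.3% were called higher in LowAhR+AD and 11.2% in LowAhR+AD+BJ against Cont, and 6.42% and 3.64% against LowAhR. The sum of the 7 markers was 19916, 33680, 11434 and 22390 CPM in LowAhR+AD replicates 1 to 4 and 23238, 32860, 12800 and 27301 CPM in LowAhR+AD+BJ. Replicate 3 was the lowest in this sum and the highest in Flg2 in both groups. Whether these are related was not tested.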
